A study of Mus musculus with 4 samples.

Results

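The genes described here encode the vacuolar proton pump (V-ATPase) and the Ragulator and Rag GTPase scaffold of the lysosome. They also encode the mTOR kinase complexes and regulators of mTORC1. They were taken by a fixed list of gene symbols rather than by a threshold on measured values. That list was chosen with earlier results of these data known, so its counts beside the shares of the table are a description. In all, 41 of the 11111 genes in the table matched: 18 V-ATPase genes, 5 of Ragulator, 4 Rag GTPases, 5 of the mTOR complexes, 3 of the TSC and Rheb group, 3 of the folliculin complex and 3 of GATOR1. Messenger RNA was sequenced from macrophages grown from the bone marrow of wild-type C57BL/6 mice over 7 days, with fresh medium on day 4. A control morpholino, a type of antisense oligomer, was delivered for the 2 Ctrl MO libraries, and morpholinos directed at Regnase-1 for the 2 Reg1-MOs libraries. Regnase-1 is the RNase encoded by Zc3h12a. Both groups received 2 µM morpholino with the delivery peptide Endoporter at 6 µl/ml for 24 hours and then lipopolysaccharide (LPS) at 10 ng/ml for 4 hours, so no unstimulated or morpholino-free cells are part of the comparison. The columns of the Reg1-MOs libraries carry the names MO1 and MO2, which the labels also give to the targeting morpholinos. Whether each library had 1 morpholino or both is not settled, and the libraries were treated as replicates. The labels do not say whether replicates are separate mice or cultures. The p-values therefore rest only on how far these libraries spread, in the gene itself and across the other genes of the table. That spread may be technical.

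The V-ATPase uses ATP to pump protons into lysosomes and endosomes. Its cytosolic V1 sector splits ATP and turns a rotor, and its membrane-embedded V0 sector carries the protons. On the lysosomal surface the pump touches Ragulator, which anchors the Rag GTPases; when amino acids are plentiful the Rags bring mTORC1 to the lysosome, where Rheb switches the kinase on. TSC keeps Rheb off, GATOR1 keeps RagA and RagB off, and folliculin acts on RagC and RagD. In macrophages these proteins serve acidification of phagosomes and growth control, and TFEB, TFE3 and MITF, which mTORC1 holds in the cytoplasm, are known activators of many V-ATPase and lysosomal genes.

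With Reg1-MOs, 5 of the 18 V-ATPase genes in the table rose and none fell (limma, with the threshold at an adjusted p of 0.05). The rises were those of the V1 genes Atp6v1c1, Atp6v1a, Atp6v1d and Atp6v1b2 and the V0 gene Atp6v0c, and they were small, at 1.20 to 1.35-fold. Of the other 23 members, only Rragd, the gene of RagD, rose, at 1.62-fold, and none fell. By the same test 6.22% of all genes in the table rose and 6.03% fell, so the 1 of 23 lies close to the share of the table. At an unadjusted p under 0.05 the V-ATPase genes had 10 higher and 3 lower, and the other members 5 higher and 1 lower, where 13.6% of all genes were higher and 15.7% lower. At this looser level the 3 lower V-ATPase genes lie close to the share of the table. Voom weights on the recovered reads also gave 6 members higher and 0 lower. The median log2 fold change was 0.21 over the V-ATPase genes and 0.02 over the other members, against -0.03 over all genes. All fold changes divide Reg1-MOs by Ctrl MO, at n = 2 in each group. SE stands for limma's moderated standard error on the log2 scale.

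Zc3h12a, the gene at which the morpholinos are aimed, was counted at 3407 and 3572 reads in the controls. In the Reg1-MOs libraries it was at 7799 and 6753, and it rose by 1.10 on the log2 scale (SE 0.07, limma adjusted p = 0.000401). The labels do not state whether the morpholinos were meant to raise or lower its RNA. The libraries held 23369753 to 25213695 reads in the table. All 10 macrophage markers on the list used were in the table, with summed levels of 23515 and 23305 RPM (reads scaled by library size, as processed here) in the controls and 21770 and 21512 with Reg1-MOs. Of 10 stromal and fibroblast markers 7 were in the table and all 7 fell, with summed levels of 179 and 186 RPM against 74.0 and 86.1. Of the macrophage markers Cd68 rose by 0.34 and Lyz2 fell by 0.27 on the log2 scale. The 10 ran from -0.49 to 0.34, with 4 above 0 and 6 below. By limma 2 of them were higher and 3 lower at an unadjusted p under 0.05. Of 8 osteoclast markers 5 were in the table. Among these Ctsk rose by 0.93 on the log2 scale, Mmp9 fell by 0.81 and Dcstamp fell by 0.57, and the summed level was 266 and 255 RPM against 290 and 250. The 8 neutrophil markers in the table held 336 to 472 RPM and none passed the test by limma, with 2 above 0 and 6 below. At an unadjusted p under 0.05 by limma 0 were higher and 2 lower. Of all genes 13.6% were higher and 15.7% lower at that level. No marker of dendritic cells, mast cells or erythroid cells was among the rows, and of lymphocytes only Cd79b was. No marker in the table was at 0. The macrophage and stromal sums did not overlap between the groups, while the osteoclast and neutrophil sums did. The part of these cells in the members' changes was not tested. In bulk RNA a change in the number of cells of a type and a change in RNA per cell cannot be told apart.

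**Figure D1:**
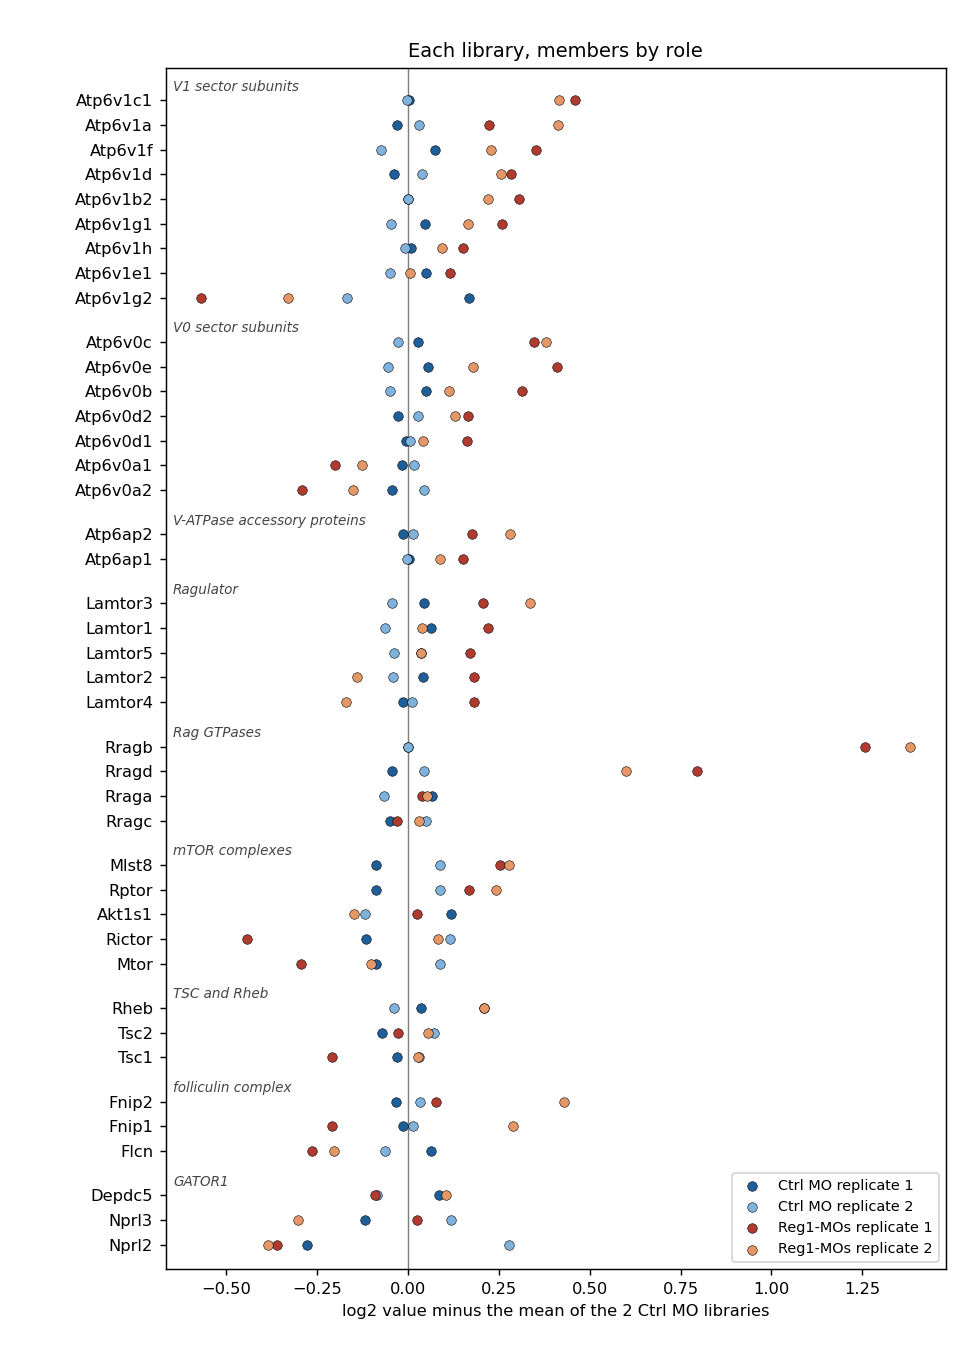
Deposited log2 value of each of the 41 members in each library, less the mean of the 2 Ctrl MO libraries, ordered by role. Points are single libraries (blue for Ctrl MO, red and orange for Reg1-MOs). In 14 of the 18 V-ATPase genes both Reg1-MOs points lie to the right of both Ctrl MO points, and in 3 they lie to the left.

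Levels are given below as RPKM, which is RPM divided by the gene's exon length in kilobases. That length merges the annotated exons of all transcripts of a gene and can exceed the transcript in use. Comparisons between genes, and shares among forms of a subunit, are therefore approximate. In 14 of the 18 V-ATPase genes both Reg1-MOs libraries lay above both Ctrl MO libraries, and in 3 they lay below. The corresponding shares of the whole table were 27.1% and 31.8%. Of the 23 other members, 7 lay above, close to the share of the table, and 3 below. The median of mean reads was 2770 for the V-ATPase genes, 929 for the other members and 429.5 for all genes. The shares of the table, here and for the calls above, are thus not a background of like depth. The part of depth was not tested. Reads from all V-ATPase genes summed to 4469 and 4446 RPM in the controls and 5120 and 5014 with Reg1-MOs. The sums of the other members overlapped between the groups, at 1203 and 1250 RPM against 1214 and 1308.

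The V1 sector contained 4 of the 5 V-ATPase rises, among 9 genes (44.4%, against 6.22% of all genes). Its median log2 fold change was 0.26. By limma 6 of the 9 were higher and 1 lower at an unadjusted p under 0.05. Atp6v1c1 (ENSMUSG00000022295) encodes subunit C, which joins the stator of the pump and leaves it when V1 and V0 come apart. Its level was 22.2 and 22.1 in the controls and 30.4 and 29.5 with Reg1-MOs, with replicates close together and the groups well apart. The log2 fold change was 0.44 (SE 0.07, limma adjusted p = 0.00708). The gene lies on chromosome 15 from 38661933 to 38692446 (GRCm38, plus strand).

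Atp6v1a (ENSMUSG00000052459) and Atp6v1b2 (ENSMUSG00000006273) encode the A and B subunits, which alternate in the ATP-splitting ring, with the catalytic site on A. Atp6v1a stood at 76.7 and 79.9 in the controls and 91.3 and 104 with Reg1-MOs, and the log2 fold change was 0.32 with SE 0.08 (limma adjusted p = 0.0415). Atp6v1b2 had the highest per-length level of all 41 members. It stood at 208 in both Ctrl MO libraries and at 258 and 243 with Reg1-MOs, and the log2 fold change was 0.26 with SE 0.06 (limma adjusted p = 0.0367). For both genes the lower Reg1-MOs library was above the higher control. Their positions are chromosome 16, 44085402 to 44139705 (minus strand), and chromosome 8, 69088646 to 69113711 (plus strand). The sister gene for the other form of B, Atp6v1b1, was not among the rows analysed here.

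Atp6v1d (ENSMUSG00000021114) encodes subunit D, part of the central rotor. It stood at 20.8 and 21.9 in the controls and 26.0 and 25.5 with Reg1-MOs, and the log2 fold change was 0.27 with SE 0.07 (limma adjusted p = 0.0473). Its partner in the rotor, subunit F, is encoded by Atp6v1f, which stood at 94.9 and 85.7 against 115 and 106. That difference, 0.29 (SE 0.08), was no smaller than that of Atp6v1d but had a wider error and did not pass (adjusted p = 0.0616). The groups did not overlap in either rotor gene.

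The remaining V1 genes did not pass. Atp6v1g1, encoding the common form of the stator subunit G, stood at 0.21 (SE 0.08, limma adjusted p = 0.115), and the regulatory subunit gene Atp6v1h at 0.12 (adjusted p = 0.266), both without overlap. Atp6v1e1, encoding stator subunit E, stood at 99.5 and 92.8 in the controls and 104 and 96.5 with Reg1-MOs, so its groups overlapped, and its log2 fold change was 0.06 (SE 0.07). Atp6v1g2, encoding a form of G known from neurons, went the other way, with 120 and 95 reads against 73 and 79, and stood at -0.45 (SE 0.18, adjusted p = 0.141). Its exons overlap those of Nfkbil1 on the opposite strand, and since the strand setting of the counting is not given, reads of the pair may not be separated.

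In the V0 sector 1 of 7 genes rose (14.3%, against 6.22% of all genes) and the median log2 fold change was 0.15. By limma 3 of the 7 were higher and 2 lower at an unadjusted p under 0.05. Atp6v0c (ENSMUSG00000024121) encodes the proteolipid c, which makes up most of the proton-carrying ring. It stood at 37.1 and 35.8 in the controls and 46.3 and 47.4 with Reg1-MOs, and the log2 fold change was 0.36 with SE 0.07 (limma adjusted p = 0.0148; chromosome 17, 24163866 to 24169702, minus strand). The annotation holds the copies Atp6v0c-ps1 and Atp6v0c-ps2, so reads may have been shared with them. Atp6v0b encodes another ring proteolipid and stood at 138 and 129 against 166 and 144, a difference of 0.21 (SE 0.08, adjusted p = 0.141) that ran from 0.11 to 0.31 with 1 library left out. The small membrane subunit gene Atp6v0e stood at 31.8 and 29.5 against 40.7 and 34.7, a difference of 0.29 (SE 0.09, adjusted p = 0.0821). Neither overlapped between groups, and in both Reg1-MOs replicate 1 was the higher.

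Subunit d, which couples the rotor to the ring, has a general form encoded by Atp6v0d1 and a form encoded by Atp6v0d2 that is known from osteoclasts and macrophages. Atp6v0d2 was the more abundant per length, at 59.5% and 60.2% of the pair's level in the controls and 59.9% and 61.3% with Reg1-MOs. These shares overlapped between the groups. The log2 fold changes were 0.15 (SE 0.06, limma adjusted p = 0.177) for Atp6v0d2 and 0.10 (SE 0.07, adjusted p = 0.399) for Atp6v0d1.

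Subunit a, the membrane stator that sends the pump to its compartment, showed differences of opposite sign among its forms. Atp6v0a1 stood at 73.4 and 75.2 in the controls and 64.6 and 68.0 with Reg1-MOs, and the log2 fold change was -0.16 with SE 0.06 (limma adjusted p = 0.137). Atp6v0a2, whose product is known from the Golgi and endosomes, stood at 9.61 and 10.2 against 8.09 and 8.93, a difference of -0.22 (SE 0.08, adjusted p = 0.131). Neither passed, although both Reg1-MOs libraries lay below both controls in each. The form a3, encoded by Tcirg1 and known from osteoclasts and lysosomes, falls outside the symbol rule and was read as a neighbour of the pathway. Tcirg1 stood at 225 and 220 against 274 and 259 and rose by 0.26 (SE 0.06, adjusted p = 0.0406). Tcirg1 made up 73.1% and 72.0% of the per-length level of the 3 forms in the controls and 79.0% and 77.1% with Reg1-MOs, and Atp6v0a1 23.8% and 24.6% against 18.6% and 20.3%. With 2 libraries a side an exact permutation test cannot pass 0.05, and these shares are given as a description.

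**Figure D2:**
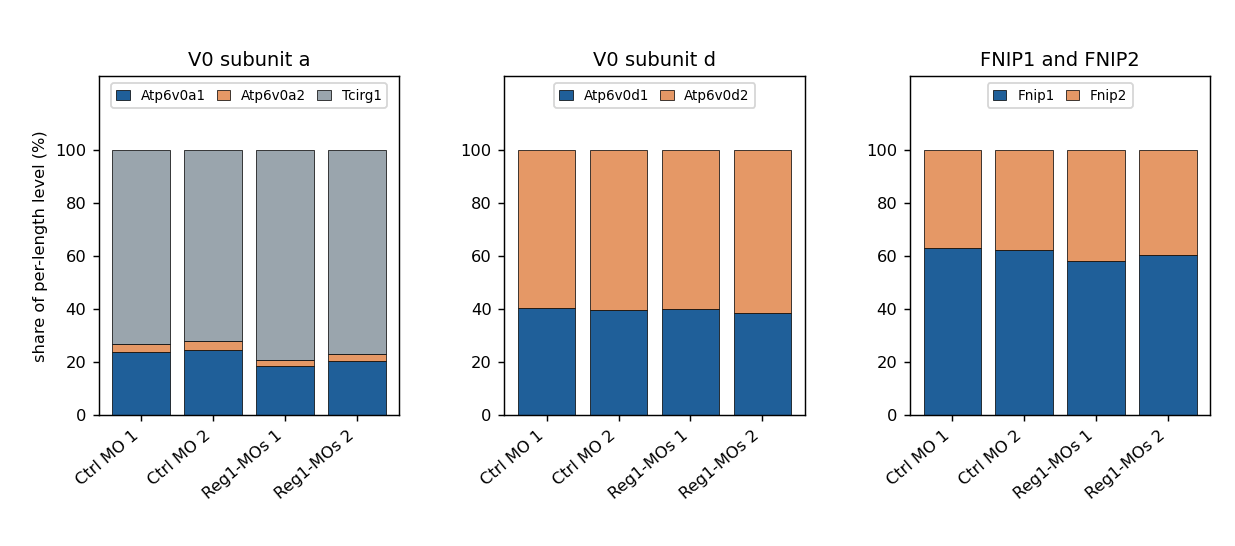
Share of the summed per-length level (percent, stacked to the total) taken by alternative forms of V0 subunit a, V0 subunit d and the folliculin partners FNIP1 and FNIP2, 1 bar per library. Tcirg1 takes 72.0% to 73.1% of subunit a in the controls and 77.1% to 79.0% with Reg1-MOs, while the subunit d shares of the groups overlap.

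The accessory proteins Atp6ap1 and Atp6ap2, which help assemble the pump in the endoplasmic reticulum, did not pass. Atp6ap2 stood at 82.6 and 84.3 in the controls and 94.2 and 101 with Reg1-MOs, and the log2 fold change was 0.23 with SE 0.07 (limma adjusted p = 0.0698). It passed with libraries scaled to equal totals (adjusted p = 0.0410) and with quantile normalization. Atp6ap1 stood at 0.12 (SE 0.06, adjusted p = 0.255).

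With 1 library left out, the log2 fold changes of the 6 members that passed kept their sign. They ran from 0.41 to 0.46 for Atp6v1c1, 0.22 to 0.41 for Atp6v1a, 0.23 to 0.31 for Atp6v1d and 0.22 to 0.31 for Atp6v1b2. For Atp6v0c they ran from 0.34 to 0.39, and for Rragd from 0.60 to 0.80. These fits leave 1 residual degree of freedom and 1 library in a group. A call lost in them therefore does not by itself show that the change rests on the library left out. The Atp6v1c1 call held with any 1 library left out, with an adjusted p of 0.0288 to 0.0495. For Atp6v1a it was lost on leaving out Ctrl MO replicate 1 (limma adjusted p = 0.238) or replicate 2 (0.144), and also Reg1-MOs replicate 2 (0.0717). For Atp6v1b2 and Atp6v0c it was lost on leaving out Ctrl MO replicate 1 (0.294 and 0.0857) or replicate 2 (0.325 and 0.182), and also Reg1-MOs replicate 1 (0.0883 and 0.0536). The Atp6v1d call ended on leaving out any 1 of the 4 (0.0643 to 0.404), and that of Rragd likewise (0.0515 to 0.117). Without a variance trend all 6 calls ended, with Atp6v1c1 at an adjusted p of 0.0661, Rragd at 0.0562, Atp6v0c at 0.0899 and the others at 0.144 to 0.164. The Tcirg1 call also ended without a variance trend (0.158) and on leaving out Ctrl MO replicate 1 (0.262) or replicate 2 (0.391), and also Reg1-MOs replicate 1 (0.0968).

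**Figure D3:**
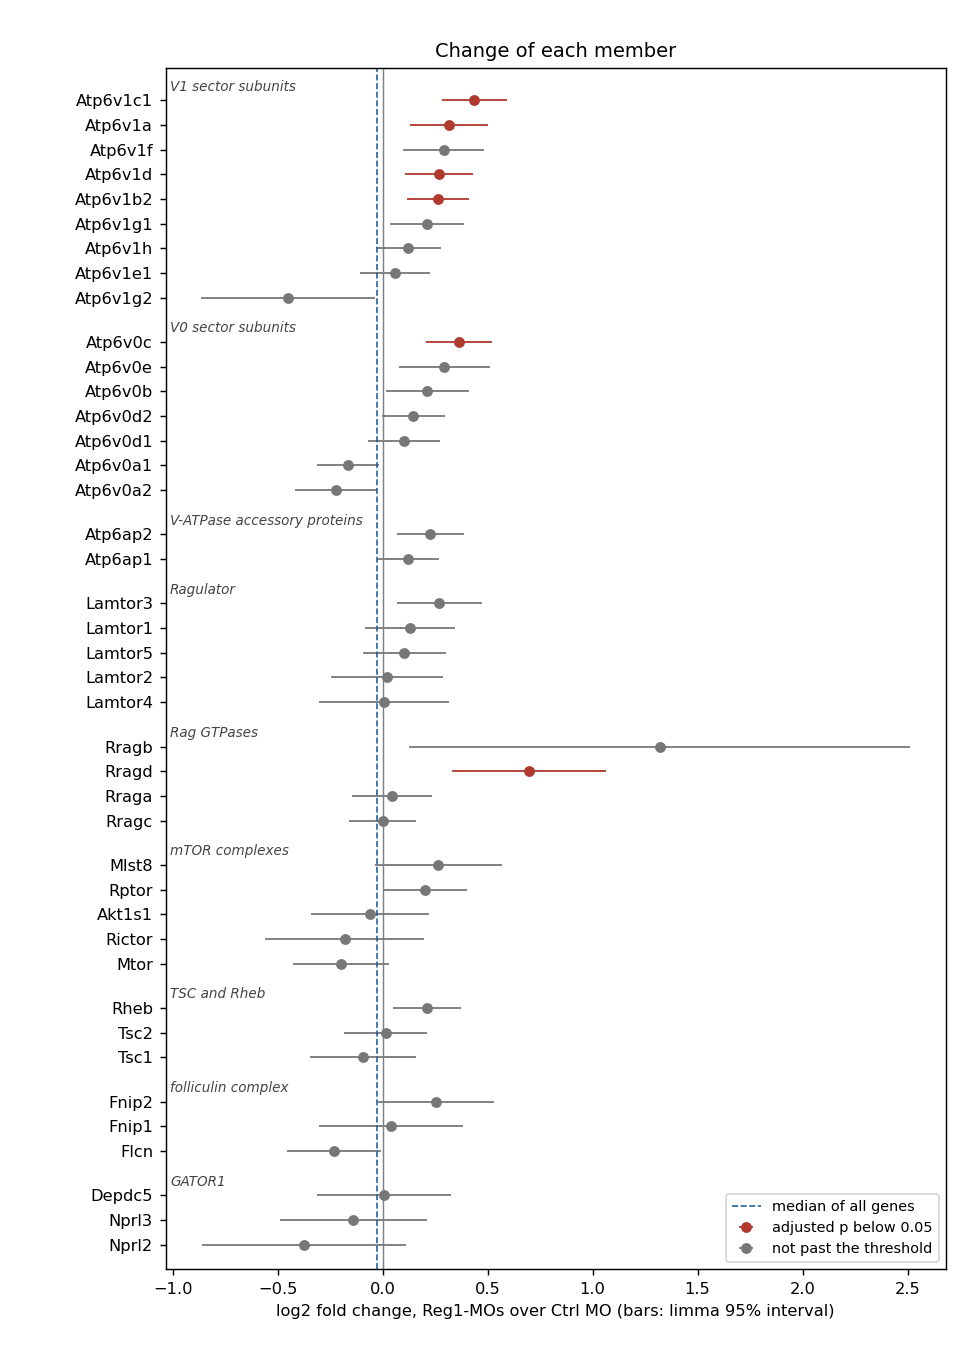
Log2 fold change (Reg1-MOs over Ctrl MO) of each member with limma's 95% interval, ordered by role. The 6 members past the threshold are in red, the others in grey, and the dashed line marks the median of all genes at -0.03. The V1 and V0 genes lie mostly to the right of the line, apart from Atp6v1g2, Atp6v0a1 and Atp6v0a2.

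Promoter sequences show where the V-ATPase genes carry the letters that TFE factors are known to bind, the E-box CACGTG and its longer form TCACGTGA. RefSeq sequences of build GRCm38.p6, from 250 bases before to 50 after a listed transcript start, were found for 34 of the 41 members and for 8965 of the genes in the table. Both motifs read the same on both strands, and every TCACGTGA also counts as a CACGTG. A gene was counted once if any of its listed promoters held the motif, and some genes have several. TCACGTGA was present in 3 of the 12 V-ATPase genes (25.0%), 0 of the 22 other members and 2.36% of all genes with a promoter. CACGTG was present in 4 of the 12 (33.3%), in 6 of the 22 (27.3%) and in 12.1% of all. The antioxidant response letters TGACNNNGC, searched on both strands, were in 3 of the 12, in 3 of the 22 and in 17.2% of all. No promoter was listed for Atp6v1h, Atp6v1b2, Atp6v0a2, Atp6v0d2, Lamtor3, Atp6v1g1 and Atp6v1c1. The stretches below hold the E-boxes of the 4 V-ATPase genes concerned, 5′ to 3′ on the gene's strand, with the motifs in capitals.
Atp6v1a: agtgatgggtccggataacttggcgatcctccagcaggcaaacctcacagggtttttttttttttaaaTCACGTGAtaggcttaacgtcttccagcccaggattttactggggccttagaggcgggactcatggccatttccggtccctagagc
Atp6v0d1: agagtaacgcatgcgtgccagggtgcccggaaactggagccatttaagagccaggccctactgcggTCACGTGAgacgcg
Atp6v0e: tagcgcgccgaTCACGTGAgcctc
Atp6v0b: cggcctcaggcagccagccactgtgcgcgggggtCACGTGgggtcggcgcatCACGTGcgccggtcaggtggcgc

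These stretches are chr16:44139306-44139459 for Atp6v1a, chr8:105566055-105566134 for Atp6v0d1, chr17:26676387-26676410 for Atp6v0e and chr4:117887325-117887399 for Atp6v0b. The Atp6v0e stretch is on the plus strand and the others on the minus strand. Counting the start as position 1 and the base before it as -1, TCACGTGA begins at -132 in Atp6v1a, at -4 in Atp6v0d1 and at 3 in Atp6v0e, and the E-boxes of Atp6v0b begin at -36 and -18. The RefSeq gene record of Atp6v1a reaches 443 bases further upstream than the start used here, so its motif lies inside that record. In GENCODE the gene Atp6v0e begins at 26663231, upstream of its stretch, so its motif lies inside the GENCODE gene. Of these 4 genes Atp6v1a rose, and Atp6v0d1, Atp6v0e and Atp6v0b did not pass. Of the other rises with a listed promoter, those of Atp6v1d, Atp6v0c and Rragd, none held CACGTG in these windows.

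The 5 Ragulator genes encode the scaffold that holds the Rags on the lysosome, with Lamtor1 as its lipid-anchored wrap. None passed by limma, and Lamtor3 alone had an unadjusted p under 0.05. This 1 of 5 is no more than the 29.4% of all genes under that level in either direction. Lamtor3 stood at 9.91 and 9.34 in the controls and 11.1 and 12.1 with Reg1-MOs, and the log2 fold change was 0.27 with SE 0.09 (adjusted p = 0.0840). Its groups did not overlap. Lamtor1 stood at 0.13 (SE 0.09) and Lamtor5 at 0.10 (SE 0.08), and with 1 library left out they ran from 0.040 to 0.22 and from 0.035 to 0.17. The exons of Lamtor1 overlap those of Lrrc51 on the opposite strand. Lamtor2 and Lamtor4 stood at 0.02 (SE 0.11) and 0.01 (SE 0.13). For these 2 genes Reg1-MOs replicate 1 was the highest of the 4 libraries and Reg1-MOs replicate 2 the lowest, at 45.4 and 36.3 RPKM for Lamtor2 and 352 and 253 reads for Lamtor4, with the controls between.

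The Rag GTPases work as pairs of RagA or RagB with RagC or RagD. Rragd (ENSMUSG00000028278) had 63 and 67 reads in the controls and 115 and 92 with Reg1-MOs, and rose by 0.70 on the log2 scale (SE 0.16, limma adjusted p = 0.0299; chromosome 4, 32983037 to 33022180, plus strand). It remained a minor form: per length it was 0.817% and 0.814% of the summed Rragc and Rragd level in the controls and 1.44% and 1.21% with Reg1-MOs. Rragc, encoding the abundant RagC, stood at 77.5 and 82.8 against 78.5 and 81.8, with overlapping groups and a log2 fold change of 0.00 with SE 0.07 (95% interval -0.16 to 0.16).

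Rraga, the main gene of the other pair, also overlapped, at 33.1 and 30.3 in the controls and 32.5 and 32.8 with Reg1-MOs (log2 fold change 0.05, SE 0.08). Rragb, encoding RagB, was close to the limit of detection, with 3 reads in each Ctrl MO library and 8 in each Reg1-MOs library. The ratio of scaled reads was 2.74, with an exact (Clopper-Pearson) 95% interval of 1.02 to 8.54 that covers counting error only. Its fitted log2 fold change of 1.32 with SE 0.51 (limma adjusted p = 0.137) was the largest difference among members that did not pass. The size depends on the offset at such low reads: with an offset of 8 reads it was 0.58 (adjusted p = 0.147). Without a variance trend the gene passed (adjusted p = 0.0257).

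**Figure D4:**
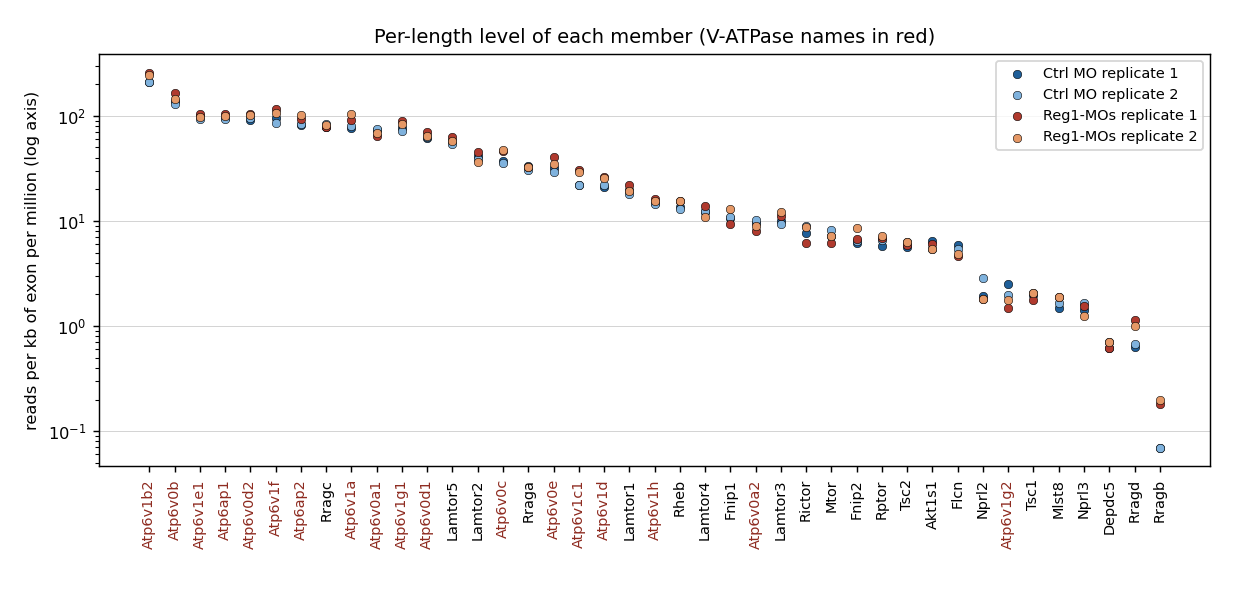
Per-length level (RPKM, log axis) of the 41 members in each of the 4 libraries, in order of their Ctrl MO mean, with V-ATPase genes named in red. Atp6v1b2 is highest, at 208 in the controls, and Rragb lowest, at 0.07. Most V-ATPase genes lie above the mTOR complex, TSC and GATOR1 genes.

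The kinase complexes showed no member past the threshold by limma, and Rptor alone had an unadjusted p under 0.05, which at 1 of 5 is also no more than the 29.4% of the table. Mtor, the kinase itself, stood at 7.19 and 8.11 in the controls and 6.23 and 7.12 with Reg1-MOs, and the log2 fold change was -0.20 with SE 0.10 (adjusted p = 0.225), or -0.29 to -0.10 with 1 library left out. Rptor encodes Raptor, which recruits substrates in mTORC1, and stood at 5.77 and 6.52 against 6.89 and 7.25, a difference of 0.20 (SE 0.08, adjusted p = 0.158). The groups did not overlap in either gene, and their differences had opposite signs. Mlst8, encoding a subunit shared by both mTOR complexes, had 125 and 141 reads against 161 and 150 and stood at 0.27 (SE 0.13, adjusted p = 0.218).

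Rictor, which defines mTORC2, stood at 7.69 and 9.02 in the controls and 6.13 and 8.81 with Reg1-MOs, and the log2 fold change was -0.18 with SE 0.16. The Reg1-MOs libraries spread more widely than the difference between the groups. Akt1s1, encoding the mTORC1 inhibitor PRAS40, stood at -0.06 (SE 0.12), with overlapping groups, and its exons overlap those of Tbc1d17 on the opposite strand.

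Rheb, the small GTPase that switches mTORC1 on, stood at 13.7 and 13.0 in the controls and 15.4 in both Reg1-MOs libraries, a log2 fold change of 0.21 with SE 0.07 (limma adjusted p = 0.0930). The genes of its inhibitors overlapped between groups: Tsc2 stood at 0.02 (SE 0.08) and Tsc1 at -0.09 (SE 0.11). The exons of Tsc2 overlap those of Pkd1 on the opposite strand. In this group 0 of 3 genes passed, with 1, Rheb, at an unadjusted p under 0.05, close to the 29.4% of the table.

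Folliculin and its partners FNIP1 and FNIP2 stimulate GTP hydrolysis on RagC and RagD and so govern how mTORC1 treats TFEB. None passed by limma, and Flcn alone had an unadjusted p under 0.05, which at 1 of 3 is close to the 29.4% of the table. Flcn stood at 5.86 and 5.37 in the controls and 4.67 and 4.87 with Reg1-MOs, and the log2 fold change was -0.23 with SE 0.10 (adjusted p = 0.154), with both Reg1-MOs libraries below the controls. Fnip2 stood at 6.19 and 6.49 against 6.69 and 8.54 (0.25, SE 0.12), with Reg1-MOs replicate 2 above the other 3 libraries. Fnip1 stood at 10.6 and 10.8 against 9.28 and 13.1 (0.04, SE 0.15), with the 2 Reg1-MOs libraries on either side of the controls.

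GATOR1, the GTPase-activating complex for RagA and RagB, had per-length levels of 0.622 to 2.84 over its 3 genes and 4 libraries. None of its genes passed by limma, with 0 at an unadjusted p under 0.05. Depdc5 had 158 and 140 reads in the controls and 142 and 149 with Reg1-MOs (log2 fold change 0.01, SE 0.14). Nprl3 stood at -0.14 (SE 0.15) with overlapping groups, and its exons overlap those of Mpg on the opposite strand. Nprl2 had 74 and 109 reads against 71 and 64 and stood at -0.37 (SE 0.21, adjusted p = 0.280), a difference that rests on Ctrl MO replicate 2, since it was -0.09 with that library left out.

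Among 84 other genes of the pathway in the table, from 6 lists, 8 rose (9.52%) and 5 fell (5.95%), against 6.22% and 6.03% of all genes. Their median log2 fold change was 0.02. Of 17 mTORC1 substrates and TFE factors 4 rose (23.5%) and 1 fell (5.88%), with a median of 0.12. Tfeb, at 115 and 112 reads in the controls and 198 and 150 with Reg1-MOs, rose by 0.64 (SE 0.14, limma adjusted p = 0.0278). Mitf rose by 0.40 (SE 0.08, adjusted p = 0.0203), while Tfe3 stood at 0.05 (SE 0.07, adjusted p = 0.661). By the same test the ribosomal protein gene Rps6 (0.37), whose annotated copies Rps6-ps1 to Rps6-ps4 may share its reads, and Eif4b (0.26), a translation initiation factor, rose, and the autophagy kinase gene Ulk2 (-0.42) fell.

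Of 12 V-ATPase assembly and regulation genes, Tmem9 (0.57) rose besides Tcirg1 (16.7% of the list), and none fell by limma, with 0 lower at an unadjusted p under 0.05. Of 11 lysosomal ion channels and transporters, Mcoln1, encoding the calcium channel TRPML1, stood at 523 and 511 reads in the controls and 746 and 706 with Reg1-MOs and rose by 0.53 (SE 0.08, adjusted p = 0.00797). The potassium and proton channel gene Tmem175 (-0.38) fell, so 9.09% of this list rose and 9.09% fell. Of 18 genes of GATOR2, KICSTOR and nutrient sensors, Slc3a2 (0.35), a chain of amino acid transporters, rose and Bmt2 (-0.44), encoding the methionine sensor SAMTOR, fell. Each is 5.56% of that list, close to the share of the table. Of 19 upstream kinase genes Pik3cd (-0.33) and Akt2 (-0.35) fell and none rose, with 1 higher at an unadjusted p under 0.05. None of 7 other mTOR complex and TSC partners passed, with 0 at an unadjusted p under 0.05, and the smallest p values were those of Telo2 (0.30) and Tti1 (-0.17).

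Of these pathway calls that of Mcoln1 held with any 1 library left out (limma adjusted p up to 0.0447), and all 13 ended without a variance trend, Mcoln1 at 0.0529. Those of Tmem9 (adjusted p up to 0.146), Tmem175 (0.323) and Eif4b (0.361) ended on leaving out any 1 of the 4 libraries. Those of Slc3a2 (0.179), Rps6 (0.114), Ulk2 (0.247), Pik3cd (0.227) and Akt2 (0.174) were lost on leaving out either control, and also on leaving out Reg1-MOs replicate 1. The calls of Tfeb (up to 0.110) and Bmt2 (0.0806) were lost on leaving out replicate 2 of Ctrl MO, and also replicate 1 of Reg1-MOs, and that of Mitf without Ctrl MO replicate 1 (0.105). With equal totals (0.0574) and an offset of 8 reads (0.0512) the Tmem175 call ended too.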

How the data were processed

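Poly(A) RNA of the 4 macrophage libraries was sequenced after directional library preparation, per the labels' protocols. Reads were processed with cutadapt, FastQC and HISAT2 (version 1.6.3 as listed) on mm10, per the submitters' processing notes. The sources used here do not give the counter, strand setting, filter on genes or scaling. Per the file header and its values, the authors deposited log2 values per gene and library, without counts. Low values fall on steps that return whole reads (100% within 0.01) after an offset of 0.5 reads is removed, and implied library sizes are 17767798 to 19377000, below the 23369753 to 25213695 reads recovered. Columns were tied to samples by name.

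The deposited log2 values of all 11111 genes were fitted with limma 3.58.1 in R 4.3.3 (group only, all 4 libraries, variance trend, two-sided), with Benjamini-Hochberg adjustment over all genes and a threshold of 0.05. With 2 residual degrees of freedom the prior added 5.47. The test was run on simulated data first. RPM is recovered reads over the implied library size, and RPKM divides it by merged exon length (GENCODE M21, GRCm38). Reads are not independent molecules, so intervals on reads cover counting error only. Members are 48 fixed symbols, of which 7 (Atp6v1b1, Atp6v1c2, Atp6v1e2, Atp6v1g3, Atp6v0a4, Atp6v0e2, Atp6ap1l) were not among the rows analysed here. By rule every member was covered, and the 2 genes of smallest p in each pathway list were named. Tfeb, Eif4b, Ulk2, Tfe3 and individual marker genes were named after their values were seen. Members and lists were chosen with earlier results of these data known. Alternatives were equal totals, quantile normalization, no variance trend, voom weights, an offset of 8 reads, a mean of at least 50 reads, each library left out and a replicate block.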

Additional observations from a re-analysis of the deposited data

How the results depend on the processing

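Over all genes 691 rose and 670 fell, and 6 members rose and 0 fell. Without a variance trend these became 195, 182, 1 and 0, the single member being Rragb. With a replicate block they became 1532, 1891, 15 and 5, the lower ones being Atp6v0a1, Atp6v0a2, Atp6v1g2, Mtor and Rictor. The 9 members gained as higher were Atp6v0b, Atp6v0e, Atp6v1f, Atp6v1g1, Atp6ap2, Rheb, Lamtor3, Fnip2 and Rptor. The labels state no pairing and there are only 2 pairs. Deviations of same-numbered libraries correlated at 0.0958 over all genes and 0.314 over the 9476 with a mean of at least 50 reads, and whether the numbers pair the libraries is not known. With 1 library left out, 249 to 530 genes rose and 258 to 860 fell, 1 to 4 members rose and 0 fell, and the median log2 fold change of the members was 0.094 to 0.164, against 0.120. In these fits the lone library is assumed to vary like the other group. With equal totals 883 genes and 7 members rose, with quantile normalization 846 and 7, with voom weights 705 and 6, with an offset of 8 reads 695 and 6, and with a mean of at least 50 reads 651 and 6 (Rragb dropped out and 40 members were tested). The same 6 members passed under each of these 5 settings and the replicate block. The cause of the differences was not tested.

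Some differences near 0 changed sign when 1 library was left out, none of them past the threshold. With 1 library left out, the log2 fold change ran from -0.30 to 0.026 for Nprl3, -0.21 to 0.29 for Fnip1, -0.057 to 0.087 for Tsc2, -0.090 to 0.10 for Depdc5, -0.048 to 0.049 for Rragc, -0.21 to 0.026 for Tsc1 and -0.17 to 0.18 for Lamtor4. It ran from -0.18 to 0.056 for Akt1s1, -0.020 to 0.11 for Rraga, -0.44 to 0.082 for Rictor, -0.14 to 0.18 for Lamtor2 and -0.00054 to 0.11 for Tfe3. In a further 11 members, none past the threshold, the sign held but the value moved by over 1.5 times: Atp6v1e1, Atp6v1g2, Atp6v0e, Atp6v0b, Atp6v0d1, Lamtor1, Lamtor5, Rptor, Mtor, Fnip2 and Nprl2. Depth limits Rragb, at 3 to 8 reads, most. With 2 libraries a group, small differences can be missed.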
